A study of Mus musculus with 4 samples.

Results

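The 39 genes described here encode the enzymes of glycolysis, the carriers of glucose and lactate, and the factors and targets of the hypoxia response. They were taken by name from the deposited gene table, which listed 24312 genes, and every name was found. By role they comprised 6 hypoxia-inducible factor (HIF) genes and oxygen sensors, 2 glucose carriers, 14 glycolytic enzymes, 2 enzymes that set the level of the glycolytic activator fructose 2,6-bisphosphate, 5 genes of pyruvate and lactate handling, and 10 HIF-1 targets outside glycolysis.

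Glycolysis splits glucose into pyruvate in the cytosol, and activated CD8 T cells run it at a high rate and export much of the product as lactate. HIF-1 is a dimer of HIF-1α (Hif1a) and ARNT. Prolyl hydroxylases (Egln1, Egln2 and Egln3) use oxygen to mark HIF-1α for destruction by the VHL ubiquitin ligase, so the protein is mainly controlled by its stability, and in T cells it also accumulates after antigen receptor and IL-2 signalling. The stable dimer binds short DNA motifs beside genes of glucose uptake, glycolysis, lactate export and mitochondrial turnover. Transcript levels, as measured here, give neither HIF-1α protein nor glycolytic flux.

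The libraries came from P14 CD8 T cells on a C57BL/6 background, which carry a transgenic receptor for the viral peptide gp33. All cells received 100 ng/ml gp33 for 1 day, a retrovirus, 1 further day of activation, 2 days in 10 ng/ml IL-2, sorting as CD8+ GFP+, and 2 last days in 1 ng/ml IL-2. The 2 control libraries (MIG) carried the MSCV-IRES-GFP vector alone, and the 2 test libraries (BATF) carried the same vector with BATF, an AP-1 family transcription factor. The comparison asks how BATF overexpression from a retroviral promoter altered the transcripts of cultured cells. The sources used here do not give the oxygen level or the glucose content of the culture. The series' design text names biological replicates but not whether separate mice were used, so the p-values reflect only how these libraries varied, and some of that variation may be technical.

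Between 19004726 and 24795714 fragments were assigned to genes in a library. Batf itself stood at 36.1 and 26.5 CPM (counts relative to the library total, scaled between libraries by TMM, the trimmed mean of M values) in MIG and at 1342 and 934 CPM in BATF, a 36.3-fold difference. All 8 CD8 T cell markers were found in every library, among them Cd8a at 659 and 750 CPM in MIG and 423 and 599 CPM in BATF (log2 fold change -0.46, adjusted p = 0.337 in edgeR). Summed markers of CD4 and regulatory T cells ranged from 21.1 to 26.7 CPM in MIG and from 37.3 to 47.6 CPM in BATF, most of it Zbtb7b, and Cd4 itself had 11 to 15 fragments in a library. Summed markers of B cells (12.3 to 18.2 CPM), myeloid and dendritic cells (11.7 to 17.2 CPM) and erythroid, platelet and stromal cells (55.3 to 88.4 CPM) were low beside the 5896 to 7896 CPM of the CD8 markers. Cd79b (235 to 421 fragments in a library) made up most of the B cell sum, and Itgam and Xcr1 most of the myeloid and dendritic sum. Pecam1 (1150 to 2159 fragments) made up most of the erythroid, platelet and stromal sum. Of 8 CD8 markers, 7 had negative log2 fold changes, and Cd8a, Cd8b1 and Cd3e were lower in BATF at an unadjusted p under 0.05. Gzmb, an effector product and the largest part of the CD8 sum, was the exception, at 2340 and 2741 CPM in MIG and 3118 and 4678 CPM in BATF (log2 fold change 0.62, adjusted p = 0.245 in edgeR). The NK cell markers Ncr1 and Klrb1c together gave 0.202 to 0.421 CPM. Of the 38 markers in 6 lists, 36 were listed, 18 had enough counts to be tested and none of those 18 passed the edgeR test. The part of the marker differences and of other cells in the results below was not tested. In bulk RNA, fewer cells of a kind and less RNA per cell cannot be told apart.

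Added BATF was accompanied by higher mRNA for 4 of the 39 genes: Hif1a, the oxygen-regulated subunit of HIF-1; Slc16a3 (MCT4), the lactate exporter of highly glycolytic cells; Bnip3, a mitochondrial receptor for mitophagy; and Kdm3a, a histone H3 lysine 9 demethylase. None of the 39 fell, and no enzyme of glycolysis passed in this fit, which has no block for the replicate number. All 39 passed the filter on low counts. The edgeR quasi-likelihood test with Benjamini-Hochberg adjustment over 13008 genes called 10.3% of these genes and 1.09% of all genes tested (0.884% higher and 0.208% lower in BATF, adjusted p under 0.05). Of the 39 log2 fold changes, 30 were positive and the median was 0.21, while 48.5% of all genes tested were positive and their median was -0.01. The size of this shift depended on single libraries. Dropping any 1 of them gave medians of the 39 between 0.12 (BATF replicate 1 dropped) and 0.27 (MIG replicate 1 dropped). Between 27 and 34 of the 39 values were then positive. Both BATF libraries lay above both MIG libraries in 22 of the 39 genes and below them in 4, and the groups overlapped in 13. Among all genes tested these arrangements made up 19.2% (above) and 19.4% (below). At an unadjusted p under 0.05, 16 of the 39 genes were higher in BATF and 2 were lower, against 6.69% and 4.09% of all genes tested. The genes were chosen with earlier results of these data known, so these shares describe the list and do not test it.

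**Figure D1:**
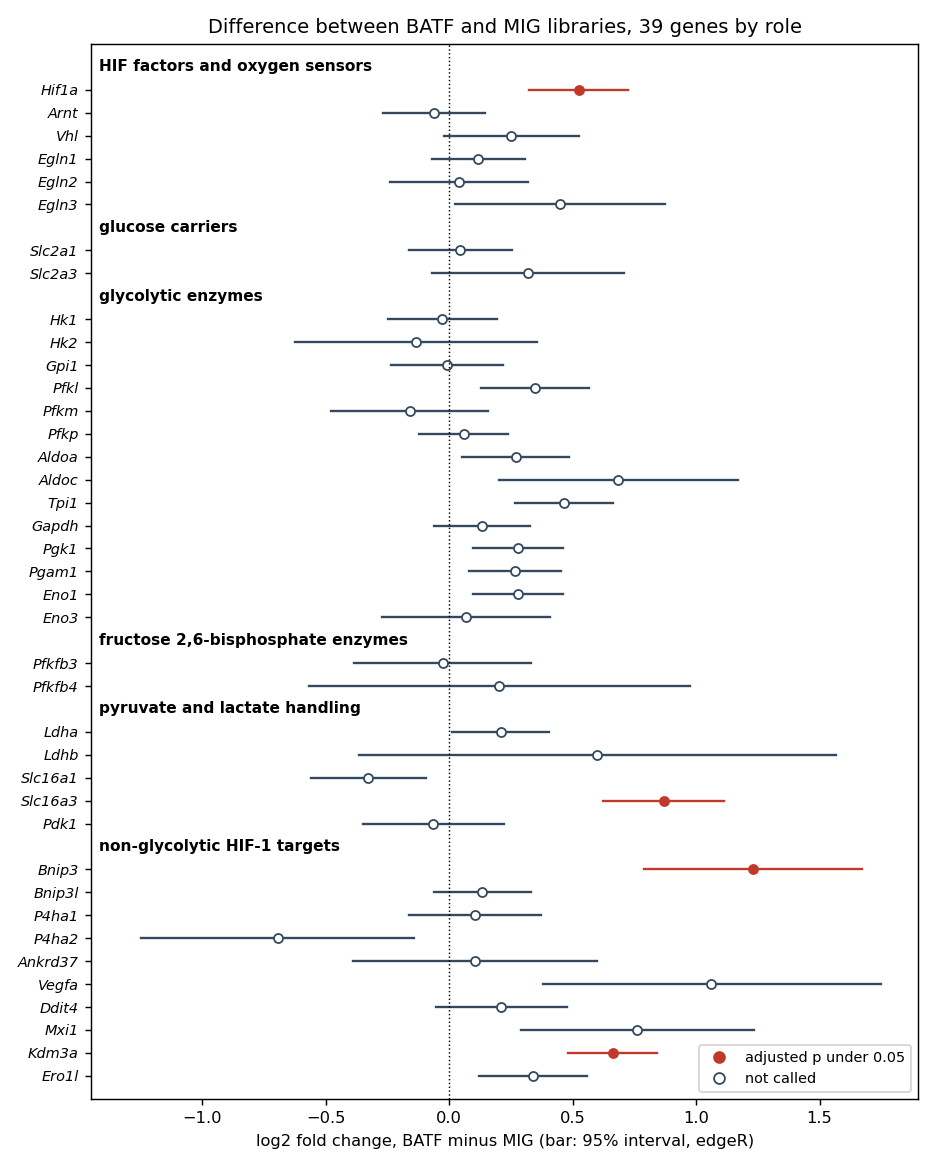
Log2 fold change of each of the 39 genes, BATF against MIG (points), with the 95% interval of the edgeR fit (bars), arranged by role. The filled points are the 4 genes with an adjusted p under 0.05, and most of the open points lie right of 0, from the fold change of P4ha2 at -0.69 to that of Vegfa at 1.06.

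**Figure D2:**
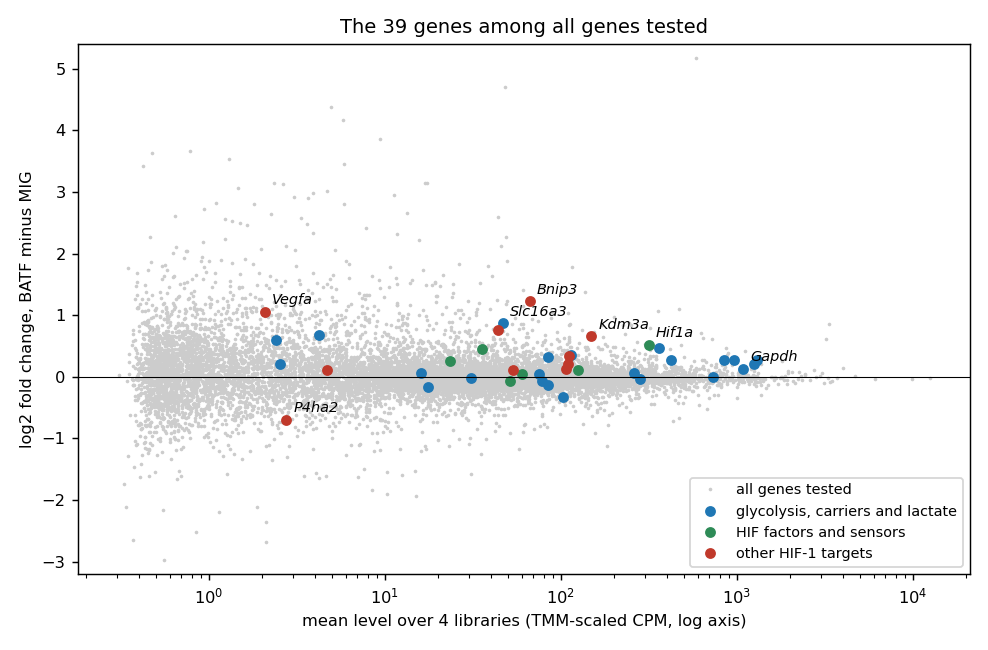
Log2 fold change against mean level (TMM-scaled CPM over 4 libraries, log axis) for the 13008 genes tested, with the 39 genes coloured by role. Bnip3, Slc16a3, Kdm3a and Hif1a stand above the dense part of the cloud at their levels, while Gapdh, at a higher level, lies near its centre.

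The promoters of the 4 genes that rose are shown because HIF-1 is known to act through the core letters ACGTG or GCGTG. Each sequence is the 250 bases before the most upstream RefSeq start of the gene in GRCm38.p6, read along the gene's strand, with every ACGTG or GCGTG on either strand in capitals (overlapping matches form 1 stretch). Hif1a (chr12:73907617-73907866, plus strand) and Slc16a3 (chr11:120948817-120949066, plus strand) each hold 2 stretches, Bnip3 (chr7:138909507-138909756, minus strand) holds 4 and Kdm3a (chr6:71632918-71633167, minus strand) holds 1.
Hif1a: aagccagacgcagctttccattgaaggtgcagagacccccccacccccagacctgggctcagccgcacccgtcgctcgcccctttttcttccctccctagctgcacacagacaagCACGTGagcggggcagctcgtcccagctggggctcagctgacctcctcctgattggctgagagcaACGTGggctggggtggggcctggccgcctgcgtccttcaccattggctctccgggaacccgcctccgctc
Slc16a3: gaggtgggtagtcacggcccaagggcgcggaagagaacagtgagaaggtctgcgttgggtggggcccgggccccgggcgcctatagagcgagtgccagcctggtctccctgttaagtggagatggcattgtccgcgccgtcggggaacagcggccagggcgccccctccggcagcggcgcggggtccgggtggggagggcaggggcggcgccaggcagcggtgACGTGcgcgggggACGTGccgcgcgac
Bnip3: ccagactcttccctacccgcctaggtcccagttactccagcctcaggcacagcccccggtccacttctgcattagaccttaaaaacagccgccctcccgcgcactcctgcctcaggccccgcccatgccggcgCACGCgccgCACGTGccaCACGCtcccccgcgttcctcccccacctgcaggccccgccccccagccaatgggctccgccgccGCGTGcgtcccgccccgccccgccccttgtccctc
Kdm3a: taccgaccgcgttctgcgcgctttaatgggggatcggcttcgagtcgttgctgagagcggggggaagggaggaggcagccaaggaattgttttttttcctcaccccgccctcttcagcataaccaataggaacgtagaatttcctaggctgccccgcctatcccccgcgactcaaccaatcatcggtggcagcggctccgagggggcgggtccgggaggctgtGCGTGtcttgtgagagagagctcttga
The RefSeq promoters covered 37 of the 39 genes, Ero1l under the symbol Ero1a. For the tested genes, 9891 windows were matched, by exact symbol only. The core ACGTG or GCGTG occurred in 30 of these 37 windows (81.1%), in 56.8% of the windows of tested genes and in 38.6% of all 27025 windows. ACGTG alone occurred in 19 of 37 (51.4%), in 21.7% of the windows of tested genes and in 16.5% of all windows. The AP-1 motif TGANTCA, searched on both strands, occurred in 0 of the 37 windows, in 4.1% of those of tested genes and in 6.85% of all. Known hypoxia targets are among the 39 genes. The part of that choice in the share of the core motif was not tested, and a match of letters is not a measured binding site.

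Of the HIF factors and oxygen sensors, Hif1a rose and the other 5 genes did not pass the test. Hif1a measured 261 and 259 CPM in MIG and 391.8 and 355.6 CPM in BATF. The MIG libraries were nearly equal and both BATF libraries lay well above them, a 1.44-fold rise (log2 fold change 0.52 ± 0.08 SE, 95% interval 0.32 to 0.72, adjusted p = 0.046 in edgeR, n = 2 per group). The call was close to the threshold: leaving out BATF replicate 1 gave an adjusted p of 0.248, and leaving out BATF replicate 2 gave 0.0735. Arnt, the constant partner of HIF-1α, measured 52.3 and 52.6 CPM in MIG and 50.6 and 50 CPM in BATF (log2 fold change -0.06, 95% interval -0.27 to 0.15, adjusted p = 0.925 in edgeR). Hif1a rose, while the 95% interval of Arnt ended below the fold change estimated for Hif1a.

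Egln3, a prolyl hydroxylase that is itself a HIF-1 target, measured 35.5 and 24.7 CPM in MIG and 43.4 and 38.8 CPM in BATF (log2 fold change 0.45 ± 0.18 SE, adjusted p = 0.421 in edgeR). Both BATF libraries lay above both MIG libraries, while leaving out MIG replicate 1 gave a log2 fold change of 0.74 (adjusted p = 0.0339) and leaving out MIG replicate 2 gave 0.20 (adjusted p = 0.492). Vhl, which recognises hydroxylated HIF-1α, measured 21.9 and 20.9 CPM in MIG and 25.5 in each BATF library (log2 fold change 0.25 ± 0.11 SE, adjusted p = 0.523 in edgeR). Egln1, the main oxygen sensor in most cells, had a log2 fold change of 0.12 (95% interval -0.07 to 0.31), and Egln2 had one of 0.04 (95% interval -0.24 to 0.32). On the FPKM scale, which allows levels of different genes to be set side by side, Hif1a was the most abundant of the 6 with 54.7 to 83.5 FPKM, followed by Egln1 with 33.6 to 38.4 and Egln2 with 27 to 34.5 FPKM. The ranges of Egln1 and Egln2 over the 4 libraries overlapped. Egln3 (9.61 to 17.1 FPKM), Arnt (11.8 to 12.6 FPKM) and Vhl (7.98 to 9.94 FPKM) were lower.

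Neither glucose carrier passed the test. Slc2a1 (GLUT1), the main glucose carrier of activated T cells, measured 73.6 and 73.8 CPM in MIG and 72.7 and 79.4 CPM in BATF. The groups overlapped, and the 95% interval of its log2 fold change ran from -0.16 to 0.25. Slc2a3 (GLUT3), a carrier of higher affinity for glucose, measured 84.7 and 65.5 CPM in MIG and 105.9 and 81.5 CPM in BATF (log2 fold change 0.32 ± 0.16 SE, adjusted p = 0.595 in edgeR). Replicate 1 was the higher library of Slc2a3 in each group, and the second BATF library lay below the first MIG library. Its log2 fold change ran from 0.12 to 0.52 with 1 library left out. Per transcript length, Slc2a1 made up 58.0% and 64.1% of the summed FPKM of both carriers in MIG and 52.1% and 60.7% in BATF, again with overlapping groups.

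The 14 glycolytic enzymes contained no gene that passed the test, with log2 fold changes from -0.16 (Pfkm) to 0.69 (Aldoc) and a median of 0.20. Of these, 10 were positive, both BATF libraries lay above both MIG libraries in 9 and below in 1. At an unadjusted p under 0.05 in edgeR, 7 were called, all higher in BATF. Among all genes tested, 48.5% were positive, 19.2% lay above and 19.4% below. At the same unadjusted p, 6.69% of all genes tested were higher in BATF. Read along the pathway, Hk1 of the hexokinases, which trap glucose in the cell, and glucose phosphate isomerase (Gpi1) had differences near 0. The 7 genes with an unadjusted p under 0.05 were the phosphofructokinase Pfkl and Aldoa, Aldoc, Tpi1, Pgk1, Pgam1 and Eno1 of the later steps. Hk1 measured 302 and 265 CPM in MIG and 284 and 272 CPM in BATF (log2 fold change -0.03, 95% interval -0.25 to 0.19). Hk2, the inducible and HIF-1 responsive hexokinase, measured 69.2 and 107 CPM in MIG and 71.8 and 88.7 CPM in BATF (log2 fold change -0.14, 95% interval -0.63 to 0.35). Its libraries differed more within each group than the groups did from each other. Gpi1 measured 789 and 679 CPM in MIG and 743 and 716 CPM in BATF (log2 fold change -0.01, 95% interval -0.24 to 0.22).

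**Figure D3:**
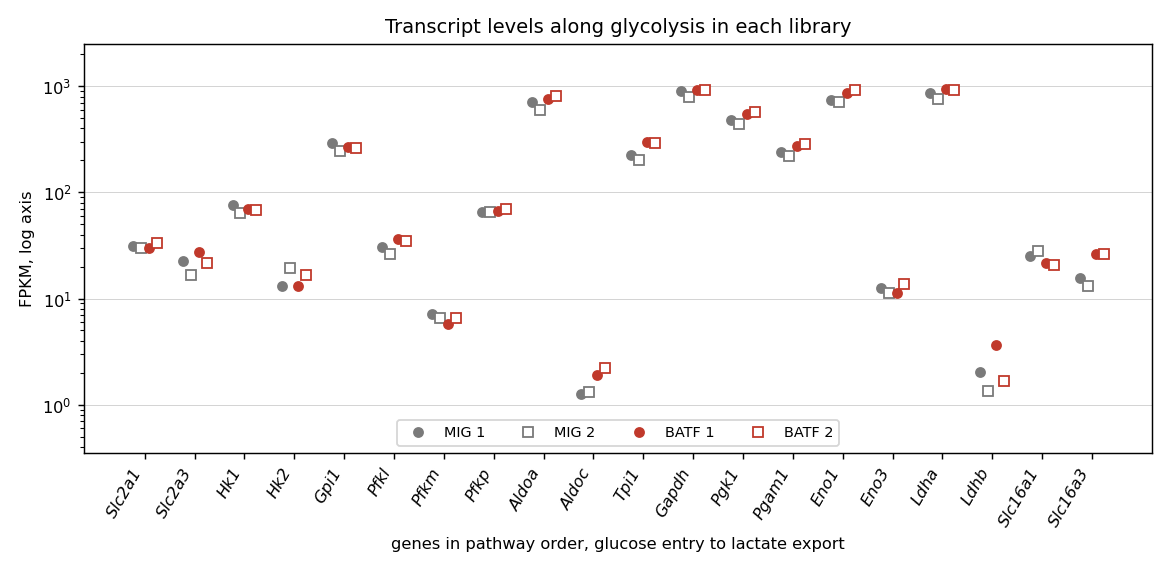
FPKM (log axis) of the carriers, enzymes and lactate genes in each of the 4 libraries, in pathway order from glucose entry to lactate export. The major forms from aldolase to lactate dehydrogenase stood between 202 FPKM (Tpi1) and 944 FPKM (Ldha), while Aldoc and Ldhb stayed between 1.26 and 3.62 FPKM.

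Phosphofructokinase commits sugar to glycolysis. The log2 fold changes of its 3 genes were not all of 1 sign, but their 95% intervals overlapped and no test compared them. Pfkl, the liver-type subunit, measured 107 and 95.3 CPM in MIG and 133 and 125 CPM in BATF, without overlap (log2 fold change 0.35 ± 0.09 SE, 95% interval 0.13 to 0.57, adjusted p = 0.188 in edgeR). Pfkp, the platelet-type subunit and the most abundant of the 3 by FPKM, measured 252 and 259 CPM in MIG and 264 and 269 CPM in BATF (log2 fold change 0.06, 95% interval -0.12 to 0.24). Pfkm, the muscle-type subunit, was the scarce one, with 19.2 and 18.1 CPM in MIG and 15.7 and 17.6 CPM in BATF (log2 fold change -0.16, 95% interval -0.48 to 0.16). In shares of their summed FPKM, Pfkl stood at 29.4% and 26.7% in MIG and at 33.6% and 31.6% in BATF.

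The enzymes that follow had small positive differences that fell short of the threshold. Aldoa, the main aldolase, measured 928 and 820.5 CPM in MIG and 1026 and 1081 CPM in BATF (log2 fold change 0.27 ± 0.09 SE, adjusted p = 0.314 in edgeR). Aldoc, the brain-type aldolase, had the highest fold change of the enzymes, 0.69 ± 0.20 SE on the log2 scale, at levels of 1.26 to 2.2 FPKM. Aldoc was a small part of aldolase FPKM, of which Aldoa averaged 99.8% in MIG and 99.7% in BATF. Tpi1, which interconverts the triose phosphates, came closest to the threshold among the enzymes. It measured 316 and 293 CPM in MIG and 430.2 and 410.2 CPM in BATF (log2 fold change 0.47 ± 0.08 SE, 95% interval 0.27 to 0.66, adjusted p = 0.0636 in edgeR). The groups did not overlap, and the call depended on the fit. The adjusted p was 0.00759 by DESeq2, 0.064 by limma-voom, and 0.139 and 0.112 on log2(FPKM + 1) and log2(FPKM + 0.1). Leaving out MIG replicate 1 or 2 gave 0.022 and 0.0133 in edgeR, and leaving out BATF replicate 1 or 2 gave 0.319 and 0.185.

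Gapdh, the enzyme of the oxidative step, measured 1087 and 997 CPM in MIG and 1149 and 1135 CPM in BATF (log2 fold change 0.13, 95% interval -0.06 to 0.33, adjusted p = 0.688 in edgeR). Pgk1, which makes the first ATP of the payoff phase, measured 782 and 749 CPM in MIG and 918 and 941 CPM in BATF (log2 fold change 0.28 ± 0.08 SE, adjusted p = 0.207 in edgeR). Pgam1, the mutase that follows, measured 394 and 376 CPM in MIG and 454 and 471 CPM in BATF (log2 fold change 0.27 ± 0.08 SE, adjusted p = 0.236 in edgeR). In all 3 genes both BATF libraries lay above both MIG libraries, and none of the 3 passed the test. Eno1, the main enolase, measured 1175 and 1169 CPM in MIG and 1388 and 1455 CPM in BATF (log2 fold change 0.28 ± 0.08 SE, adjusted p = 0.209 in edgeR). Eno3, the muscle enolase, had overlapping groups at 11.3 to 13.7 FPKM (log2 fold change 0.07). Several of these enzymes, among them Gapdh, Pgk1, Aldoa, Tpi1 and Eno1, have processed pseudogenes or near-identical copies, and the sources used here do not say how the authors' counting divided shared reads.

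Summed over the forms of each step, FPKM averaged 86.8 in MIG and 83.7 in BATF for hexokinase, 101 and 110.0 for phosphofructokinase, 657 and 788 for aldolase, 214 and 294 for triose phosphate isomerase, and 744 and 897 for enolase. The summed FPKM of steps from aldolase onward was higher than that of hexokinase and phosphofructokinase in every library. The same held for glucose phosphate isomerase, an earlier step, at 244 to 294 FPKM. Its FPKM exceeded those of triose phosphate isomerase and phosphoglycerate mutase in both MIG libraries and lay below them in both BATF libraries. The margin to phosphoglycerate mutase was narrow in BATF replicate 1, at 268.92 against 270.69 FPKM. All 14 enzymes together made up 0.579% and 0.558% of the summed FPKM of all genes in MIG and 0.657% and 0.666% in BATF. The BATF libraries were both higher and the spread within each group was smaller than the gap (0.568% ± 0.0145 and 0.661% ± 0.00639, SD, n = 2 per group). No test was run on this share, for which an exact two-sided permutation test of 2 libraries against 2 could give no p below 0.333.

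The enzymes that make and remove fructose 2,6-bisphosphate, an activator of phosphofructokinase, did not pass the test and had overlapping groups. Pfkfb3 measured 34.6 and 27.6 CPM in MIG and 33.1 and 28 CPM in BATF (log2 fold change -0.03, 95% interval -0.39 to 0.33). Pfkfb4 was near the lower end of the levels, at 0.607 to 1.04 FPKM, and its interval was wide (log2 fold change 0.20, 95% interval -0.57 to 0.97).

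Of the 10 groups of related genes compared by their shares of FPKM, the lactate carriers differed most between BATF and MIG. Slc16a3 (MCT4), a carrier of low affinity suited to export, measured 35.4 and 31.1 CPM in MIG and 61.0 and 60.5 CPM in BATF. It rose 1.83-fold (log2 fold change 0.87 ± 0.10 SE, 95% interval 0.62 to 1.11, adjusted p = 0.021 in edgeR, n = 2 per group). With 1 library left out, its log2 fold change ran from 0.77 to 0.97. By limma it passed on log2(FPKM + 0.1) but not on log2(FPKM + 1). Slc16a1 (MCT1), which carries lactate and pyruvate in either direction, measured 107 and 123 CPM in MIG and 93.9 and 89.4 CPM in BATF (log2 fold change -0.33 ± 0.10 SE, 95% interval -0.56 to -0.10, adjusted p = 0.238 in edgeR). Its BATF libraries lay below both MIG libraries, but it did not pass the test. Per transcript length, Slc16a1 held 61.8% and 68.0% of the summed FPKM of both carriers in MIG and 45.2% and 44.3% in BATF, a mean difference of -20.1 percentage points. The more abundant carrier by FPKM was Slc16a1 in both MIG libraries and Slc16a3 in both BATF libraries, and the difference in share was -23.3 to -17.0 percentage points when any 1 library was left out.

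**Figure D4:**
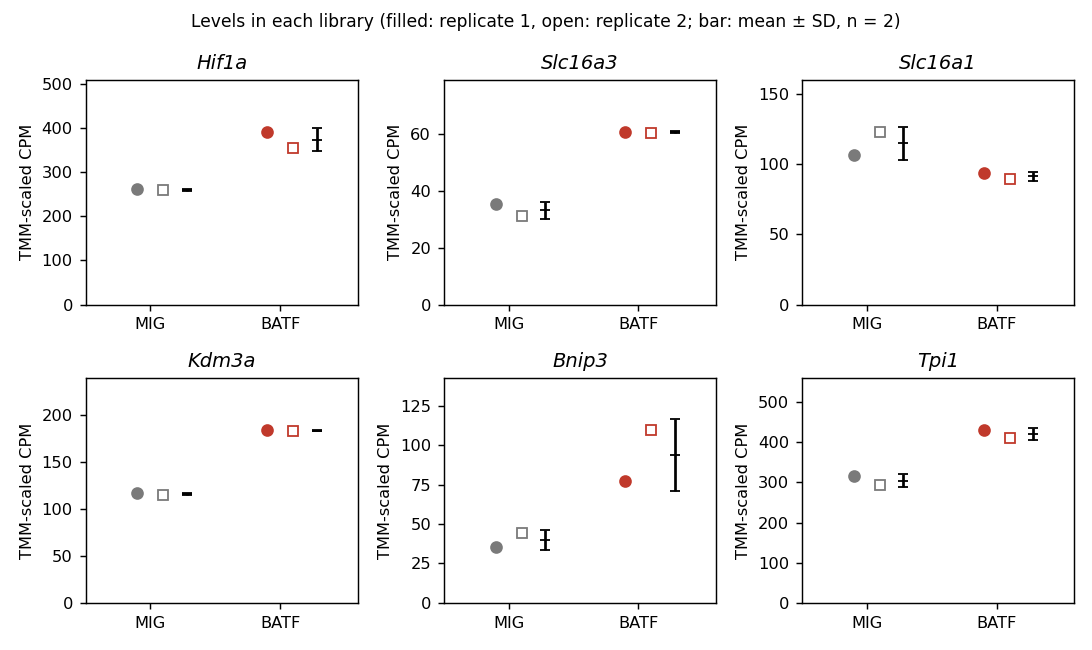
TMM-scaled CPM of 6 genes in each library (filled, replicate 1; open, replicate 2), with mean ± SD (n = 2 per group). The BATF points lie above the MIG points for Hif1a, Slc16a3, Kdm3a, Bnip3 and Tpi1 and below them for Slc16a1, and the BATF libraries of Bnip3 are the farthest apart relative to their mean, at 77.4 and 109.6 CPM.

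**Figure D5:**
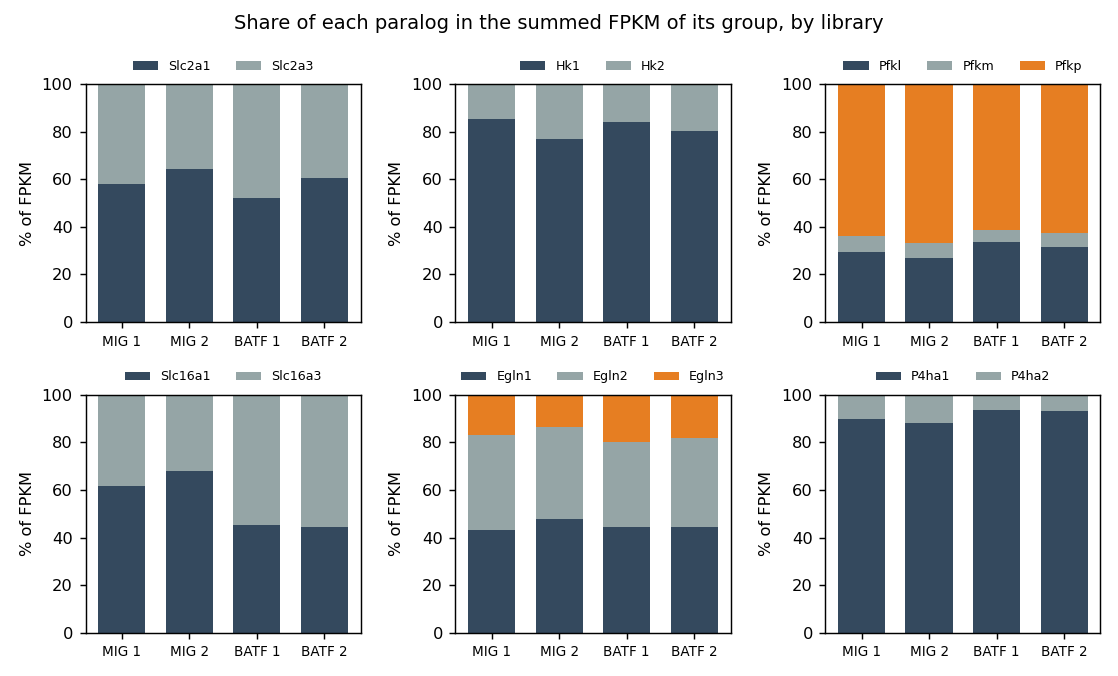
Share of each gene in the summed FPKM of its paralog group (% of FPKM, stacked to 100) in the 4 libraries. The lactate carriers show the widest gap between groups: Slc16a1 fills 61.8% and 68.0% of the MIG bars and 45.2% and 44.3% of the BATF bars.

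Ldha and Pdk1 had fold changes smaller in size than those of the lactate carriers, while that of Ldhb was imprecise. Ldha, which reduces pyruvate to lactate, measured 1217 and 1121 CPM in MIG and 1381 and 1321 CPM in BATF (log2 fold change 0.21 ± 0.08 SE, 95% interval 0.01 to 0.41, adjusted p = 0.421 in edgeR). The groups did not overlap, and Ldha was 99.8% of the summed FPKM of Ldha and Ldhb in MIG and 99.7% in BATF. Ldhb, the form favoured in oxidative tissue, had 1.36 to 3.62 FPKM and overlapping groups (log2 fold change 0.60, 95% interval -0.36 to 1.57). Pdk1, the kinase that shuts pyruvate dehydrogenase and a HIF-1 target, measured 86.5 and 74.0 CPM in MIG and 83.1 and 70.5 CPM in BATF. Its groups overlapped and its log2 fold change was -0.06 (95% interval -0.35 to 0.22), an interval that lies below the rise estimated for Slc16a3.

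Among the 10 HIF-1 targets outside glycolysis, Bnip3 and Kdm3a rose and none fell. The log2 fold changes ran from -0.69 (P4ha2) to 1.23 (Bnip3) with a median of 0.27. Of the 10, 9 were positive, and the BATF libraries lay above the MIG libraries in 7 and below in 1. Among all genes tested, 48.5% were positive, 19.2% lay above and 19.4% below. The separation of Ddit4 was narrow, with 110.35 CPM in MIG replicate 1 and 110.61 CPM in BATF replicate 2. Bnip3 measured 35.4 and 44.5 CPM in MIG and 77.4 and 109.6 CPM in BATF. Both BATF libraries were far above MIG but differed from each other, and the 2.35-fold rise was the largest of the 39 genes (log2 fold change 1.23 ± 0.19 SE, 95% interval 0.79 to 1.67, adjusted p = 0.038 in edgeR, n = 2 per group). Bnip3l (NIX), the related mitophagy receptor, measured 104 and 100.1 CPM in MIG and 116 and 108 CPM in BATF (log2 fold change 0.13, 95% interval -0.06 to 0.33). The 95% intervals of the related pair did not overlap. By FPKM, Bnip3l exceeded Bnip3 in both MIG libraries (34.1 and 31.8 against 22.8 and 27.6 FPKM) and Bnip3 exceeded Bnip3l in both BATF libraries (48.4 and 69.7 against 37 and 35.1 FPKM).

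Kdm3a measured 117 and 115 CPM in MIG and 184 and 183 CPM in BATF. Its replicates were nearly equal within each group, and it rose 1.58-fold (log2 fold change 0.66 ± 0.08 SE, 95% interval 0.48 to 0.84, adjusted p = 0.0203 in edgeR, n = 2 per group). With 1 library left out, the log2 fold change ran from 0.96 to 1.46 for Bnip3 and from 0.64 to 0.68 for Kdm3a. By limma, neither gene passed on log2(FPKM + 1), and Kdm3a but not Bnip3 passed on log2(FPKM + 0.1). Mxi1, a MAX-binding antagonist of MYC, measured 37.5 and 27.9 CPM in MIG and 64.8 and 46.2 CPM in BATF (log2 fold change 0.76 ± 0.20 SE, adjusted p = 0.184 in edgeR). The groups did not overlap, yet replicate 1 was well above replicate 2 in each, and the call depended on the fit. The adjusted p was 0.00859 by DESeq2 and 0.207 by limma-voom. In edgeR, leaving out MIG replicate 1 gave 0.0485 and leaving out BATF replicate 2 gave 0.0147, but leaving out MIG replicate 2 gave 0.0623 and leaving out BATF replicate 1 gave 0.368, where the log2 fold change was 0.50.

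Vegfa, the angiogenic growth factor and a classic HIF-1 target, had the second largest difference at the lowest FPKM of the 39 genes. It measured 0.498 and 0.407 FPKM in MIG and 0.985 and 0.798 FPKM in BATF (log2 fold change 1.06 ± 0.29 SE, 95% interval 0.38 to 1.75, adjusted p = 0.199 in edgeR). The groups did not overlap, but the test was not passed. Ero1l, the oxidase that drives disulfide formation in the endoplasmic reticulum, measured 92.8 and 105 CPM in MIG and 122 and 128 CPM in BATF (log2 fold change 0.34 ± 0.09 SE, adjusted p = 0.203 in edgeR). Ddit4 (REDD1), an inhibitor of mTORC1, measured 110.3 and 93.5 CPM in MIG and 125 and 111 CPM in BATF (log2 fold change 0.21, 95% interval -0.06 to 0.48). Ankrd37, an ankyrin repeat protein induced by HIF-1, had overlapping groups at 5.67 to 7.30 FPKM.

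The prolyl 4-hydroxylase subunits, which modify collagen and are not the oxygen sensors of HIF, had values of opposite sign. P4ha1 measured 56.0 and 46.9 CPM in MIG and 56.9 and 53.9 CPM in BATF, with overlap (log2 fold change 0.11, 95% interval -0.16 to 0.37). P4ha2 measured 1.63 and 1.6 FPKM in MIG and 0.987 and 1.01 FPKM in BATF, the lowest fold change of the 39 genes (log2 fold change -0.69 ± 0.23 SE, adjusted p = 0.306 in edgeR). Both BATF libraries were below both MIG libraries, but P4ha2 did not pass the test.

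The wider pathway was described with 139 further genes in 6 lists, of which 107 had enough counts to be tested. Of these, 2 rose (Ndrg1 and Rbpj), none fell (1.87% called, against 1.09% of all genes tested), and the median log2 fold change was 0.03. Both genes came from the 40 tested of 49 other HIF targets (median 0.10). The lists were chosen with earlier results of these data known, so their shares beside all genes are a description and no test. None passed among 14 other glycolysis and gluconeogenesis genes, 9 other sugar and monocarboxylate carriers, 10 genes of pyruvate dehydrogenase and its regulators, 16 pentose phosphate and glycogen genes, and 18 other HIF regulators, and the medians of those 5 lists lay between -0.0042 and 0.04. At an unadjusted p under 0.05, 21 of the 107 genes were higher and 3 were lower in BATF, against 6.69% and 4.09% of all genes. DESeq2 called 7 of these genes, all higher, and 2.73% of all genes. Ndrg1, a stress-response gene induced by hypoxia, measured 31.5 and 32.8 CPM in MIG and 48.5 and 52.1 CPM in BATF (log2 fold change 0.65, adjusted p = 0.0406 in edgeR, and 0.166 without BATF replicate 2). Rbpj, the DNA-binding factor of Notch signalling, measured 219 and 253 CPM in MIG and 401 and 414 CPM in BATF (log2 fold change 0.79, adjusted p = 0.0212 in edgeR). Epas1 (HIF-2α), the sister subunit of HIF-1α, measured 2.98 and 2.72 CPM in MIG and 9.07 and 6.39 CPM in BATF, and its edgeR adjusted p of 0.0518 lay just outside the threshold. Its log2 fold change of 1.43 ± 0.24 SE was the largest among the 18 other regulators. Nfil3, a leucine zipper transcription factor, measured 42.3 and 51.8 CPM in MIG and 77.3 and 102 CPM in BATF (log2 fold change 0.94 ± 0.16 SE, adjusted p = 0.0554 in edgeR). The lowest values among genes of at least 5 CPM were those of Stc2, a secreted stanniocalcin (log2 fold change -0.79, adjusted p = 0.227 in edgeR), and Emb, a chaperone of monocarboxylate carriers (log2 fold change -0.23, adjusted p = 0.46 in edgeR). Pkm, which makes pyruvate at the last step of glycolysis, measured 1777 and 1524 CPM in MIG and 2110 and 1854 CPM in BATF (log2 fold change 0.26, adjusted p = 0.444 in edgeR), and it was added here after its values were seen because it completes the pathway.

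The number of these genes that passed depended on the model. DESeq2 called 6 of the 39 and 2.73% of all genes tested, and edgeR without a filter on low counts called 6 and 1.53%, in both cases adding Mxi1 and Tpi1 to the 4 genes above. The tests on FPKM were stricter: limma called 0 of the 39 and 0.338% of all genes on log2(FPKM + 1) (at an unadjusted p under 0.05, 13 were higher and 2 lower), and 2 of the 39 (Kdm3a and Slc16a3) and 0.623% on log2(FPKM + 0.1). With 1 library left out, edgeR called 7 of the 39 and 1.79% of all genes without MIG replicate 1, 6 and 4.27% without MIG replicate 2, 3 and 2.0% without BATF replicate 1, and 4 and 1.79% without BATF replicate 2.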

How the data were processed

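Poly(A) RNA libraries of 2 MIG and 2 BATF cultures were grouped by their titles. Per the submitters' processing notes, the tools were TopHat2 2.1.1, Cufflinks 2.2.2 and Cuffdiff, and the genome build was mm9. The annotation, the strand setting and the treatment of multiply mapped reads were not given in the sources used. The deposited Cuffdiff table holds, per the file headers, estimated counts of fragments per gene and library (97.6% whole numbers, equality exact), a scaled fragment signal (that count multiplied by a factor of the authors for each library) and the authors' FPKM, which is per transcript length. Its replicates are numbered 0 and 1, which were read as 1 and 2, so the numbers only name libraries.

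Estimated counts were rounded and passed to edgeR 4.0.16 under R 4.3.3 (filterByExpr, TMM factors, glmQLFit and glmQLFTest, all 4 libraries, no covariate, Benjamini-Hochberg over 13008 genes, threshold 0.05). The biological coefficient of variation was 11.3%. Replicates differed beyond counting noise (chi-square per gene 17.7 in MIG and 9.49 in BATF). Fold changes use edgeR's shrunken estimates and intervals its unshrunk coefficient with its SE. Levels between genes were compared by FPKM only. Alternatives were DESeq2 1.42.0, limma 3.58.1 (voom, and log2 of FPKM plus 1 or 0.1), other scalings, no count filter, the replicate number as a block, and each library left out, which leaves 1 library in a group whose spread is taken to equal that of the other group. The edgeR, DESeq2 and voom fits were tested on simulated data, where the share of false calls at the threshold of 0.05 was above the nominal level for each, which bears on calls close to the threshold.

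All 39 genes are named. Of 139 further pathway genes, those called and the 2 highest and 2 lowest fold changes at a mean of at least 5 CPM are named. The genes and lists were chosen with earlier results of these data known. Promoters came from RefSeq, and no mm9 coordinates are printed.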

Additional observations from a re-analysis of the deposited data

How the results depend on the processing

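Over 12 alternative settings, 417 of 468 values for the 39 genes kept their direction and their side of the threshold, 8 lost the call, 23 gained it and 20 changed sign. The 4 called genes kept their direction in every setting. Hif1a lost its call without either BATF library, Hif1a and Bnip3 lost it on both FPKM scales, and Kdm3a and Slc16a3 lost it on log2(FPKM + 1) alone. The 142 genes called became 349 without a count filter, 345 by DESeq2, 44 on log2(FPKM + 1), 81 on log2(FPKM + 0.1) and 248 to 589 with 1 library left out; 54.3% of the calls were higher in BATF without MIG replicate 2, against 81.0%. The 4 calls among the 39 became 0 and 2 on the FPKM scales and 3 to 7 with 1 library left out. The 2 calls among the further pathway genes became 8, 7, 1 and 1 in the same order and 3 to 9 with 1 library left out. The cause was not tested. The numbers are not stated to pair libraries, and the deviations of same-numbered libraries correlated at 0.181 across genes. With the replicate number as a block, 1504 of the 13008 genes, 17 of the 39 (16 higher, among them the enzymes Pfkl, Aldoa, Aldoc, Tpi1, Pgk1, Pgam1 and Eno1, and Slc16a1 lower) and 26 further pathway genes were called on 1 residual degree of freedom. From counts in place of FPKM, the share of Aldoa differed by -0.119 (main -0.0633) and that of P4ha1 by 2.6 (main 4.42) percentage points. The changes of sign, all in uncalled genes, were these on the log2 scale. Upper quartile scaling gave Gpi1 0.0052. With 1 library left out, values ran from -0.11 to 0.20 for Egln2, -0.020 to 0.11 for Slc2a1, -0.13 to 0.075 for Hk1, -0.41 to 0.21 for Hk2, -0.12 to 0.11 for Gpi1, -0.055 to 0.18 for Eno3, -0.19 to 0.15 for Pfkfb3, -0.17 to 0.51 for Pfkfb4, -0.020 to 1.05 for Ldhb, -0.19 to 0.058 for Pdk1, -0.023 to 0.24 for P4ha1 and -0.020 to 0.24 for Ankrd37. Uncalled values that kept their sign but moved by over 1.5 times with 1 library left out were Egln3 (0.20 to 0.74), Slc2a3 (0.12 to 0.52), Mxi1 (0.50 to 1.00), Ddit4 (0.089 to 0.34), Aldoa (0.18 to 0.36), Gapdh (0.064 to 0.20), Egln1 (0.070 to 0.17), Bnip3l (0.086 to 0.18) and Pfkm (-0.25 to -0.079). Precision was limited by 2 libraries per group. Vegfa, Pfkfb4 and P4ha2 stood at the lowest levels by FPKM, and Ldhb had the largest SE of the 39 genes (0.41 on the log2 scale).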
